A study of Mus musculus with 10 samples.

Results

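Far intergenic open chromatin, meaning regions outside every annotated gene and more than 50 kb from the nearest protein-coding gene start, made up 18823 of the 99231 accessible regions found in cultured adult neural stem cells of the mouse. Accessible regions were obtained by merging overlapping ATAC-seq peaks of 10 libraries into 137454 intervals and keeping intervals that 2 or more libraries listed. Far intergenic ones were those that lay on an autosome and whose summit, the highest point of the strongest peak, met both conditions in the GENCODE annotation of GRCm38. The rule used position alone and no difference between groups. The other autosomal regions were 16069 within 3 kb of a protein-coding start (promoters), 46090 inside gene bodies beyond that distance, and 15206 intergenic regions between 3 and 50 kb from a start. On the near side of the limit, 317 intergenic regions lay 48 to 50 kb from a start, and on the far side 311 lay 50 to 52 kb away. Both of these sets had a median of 7 libraries with a peak.

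ATAC-seq marks open chromatin through a transposase that inserts sequencing adapters into accessible DNA, and a peak caller then lists the places where insertions pile up. The cells came from the subependymal zone (SEZ) of the brain of mice 10 weeks old, were grown as neural stem and progenitor cultures, and carried either the wild-type (WT) or the p27KO genotype, in which Cdkn1b, the gene for the cyclin-dependent kinase inhibitor p27, is disrupted. PRO libraries came from cultures kept proliferating in EGF (20 ng/ml) plus FGF at 10 ng/ml, and labelled 3 DIV (days in vitro). DIFF libraries came from cells seeded for 2 days with FGF and then moved for 24 h to medium without mitogens and with 2% serum. Per the study's methods, PRO cells grew as neurospheres and DIFF cells on a Matrigel coat. Mitogens, serum and the form of culture therefore differ together between PRO and DIFF, and their effects cannot be told apart. WT cells gave 3 libraries in each condition and p27KO cells gave 2 in each. The cultures hold mixed progenitors and their early progeny, so a region open in fewer cells and a region less open per cell cannot be told apart. The p27KO libraries carry that genotype in their titles, while their free-text descriptions name WT cells. Peaks within Cdkn1b were found in 6 of 6 WT and 0 of 4 p27KO libraries. Of 10 neural stem and progenitor markers, 9 had a peak at their start in all 10 libraries and Pax6 had one in a single library. Peaks at the start in all 10 libraries were also present for 4 of 8 neuronal, 1 of 7 oligodendrocyte, 2 of 5 astrocyte, 1 of 6 microglial, 1 of 6 endothelial and mural and 1 of 3 ependymal markers, and the part of other cell types in the results was not tested.

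Distal regions of this kind include enhancers, which act on genes over long distances by looping, as well as insulator sites bound by CTCF. Long stretches without protein-coding genes, called gene deserts, often flank genes that control development or cell adhesion, and some of them are rich in distal enhancers. AP-1 factors, dimers of Fos and Jun proteins, respond to growth factor signalling, and TEAD factors are the DNA-binding partners of the Hippo pathway coactivators.

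Windows reaching 100 bases to each side of the summit are printed for 3 of the 5 greatest falls and 3 of the 5 greatest rises of rank after mitogen withdrawal in WT, since these sequences carry the change described further on. They were read from the forward strand of GRCm38, 5′ to 3′. Capitals mark matches, on either strand, to 1 of 13 short motifs that are spelled out with the motif results. The 3 members with falling rank are named by the nearest flanking gene starts.
Between Has2 and Slc22a22, chr15:57187971-57188171: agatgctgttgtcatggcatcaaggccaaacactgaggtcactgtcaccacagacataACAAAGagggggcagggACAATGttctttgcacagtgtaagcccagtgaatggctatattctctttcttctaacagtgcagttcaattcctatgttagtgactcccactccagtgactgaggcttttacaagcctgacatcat
Between C1d and Etaa1, chr11:17468904-17469104: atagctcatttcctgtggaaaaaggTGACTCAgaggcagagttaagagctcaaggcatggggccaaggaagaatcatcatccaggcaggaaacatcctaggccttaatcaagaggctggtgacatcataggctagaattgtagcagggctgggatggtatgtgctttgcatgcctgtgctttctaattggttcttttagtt
Between Myc and Gsdmc, chr15:63036308-63036508: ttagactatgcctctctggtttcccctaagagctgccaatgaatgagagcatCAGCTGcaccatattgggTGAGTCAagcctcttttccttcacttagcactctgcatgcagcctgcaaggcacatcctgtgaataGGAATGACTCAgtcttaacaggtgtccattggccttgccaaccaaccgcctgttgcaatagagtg
The first window held 2 SOX matches and none for AP-1, the second held 1 AP-1 match, and the third held 2 AP-1 matches with 1 E-box and 1 TEAD match. The 3 members with rising rank were the following.
Between Cox10 and Hs3st3a1, chr11:64267725-64267925: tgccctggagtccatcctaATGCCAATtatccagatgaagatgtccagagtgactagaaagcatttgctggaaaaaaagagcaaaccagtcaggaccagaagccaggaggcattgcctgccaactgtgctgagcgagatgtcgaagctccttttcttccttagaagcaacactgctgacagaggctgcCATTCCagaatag
Between Sel1l and Flrt2, chr12:95421019-95421219: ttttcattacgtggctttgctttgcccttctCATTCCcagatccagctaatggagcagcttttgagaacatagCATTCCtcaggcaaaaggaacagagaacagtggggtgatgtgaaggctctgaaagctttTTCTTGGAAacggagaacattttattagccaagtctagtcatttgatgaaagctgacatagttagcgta
Between Hace1 and Grik2, chr10:45871202-45871402: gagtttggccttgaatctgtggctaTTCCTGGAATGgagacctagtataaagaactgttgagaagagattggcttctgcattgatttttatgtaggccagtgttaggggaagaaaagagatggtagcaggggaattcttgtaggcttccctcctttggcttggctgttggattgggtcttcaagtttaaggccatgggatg
Each of the 3 rising windows held at least 1 TEAD match and none held an AP-1 match, while another of the 5 greatest rises, not printed, held no match to any motif. The window of the member with the highest mean rank is shown because it held none of the 13 motifs and was soft-masked throughout.
On chromosome 12, left of Rab10, chr12:3109870-3110070: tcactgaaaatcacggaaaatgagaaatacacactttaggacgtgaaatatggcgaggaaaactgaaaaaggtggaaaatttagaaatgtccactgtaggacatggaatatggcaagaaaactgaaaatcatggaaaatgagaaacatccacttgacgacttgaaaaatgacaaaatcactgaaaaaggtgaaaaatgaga

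The members were spread over all distances beyond the limit. Their median distance to a protein-coding start was 165 kb, with quartiles at 89.9 and 339 kb. Of the 18823, 13248 (70.4%) were farther than 100 kb, 2680 (14.2%) farther than 500 kb and 644 farther than 1000 kb. The most distant one lay 2630 kb from Pcdh9, a protocadherin gene, at chr14:91264730-91265029. A start of a non-coding gene lay within 3 kb of 1238 members (6.58%). The median width of a member was 433 bp, close to the 434 bp of nearer intergenic regions and the 443 bp of gene-body regions, against 969 bp for promoters. Median GC content of the window was 48.3% in members, 50.7% in nearer intergenic regions and 63.7% in promoters. On average 15.7% of a member's window was soft-masked as repeat in the reference, against 13.9% for nearer intergenic regions and 6.51% for promoters, and 4.08% of members had a window that was masked throughout.

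Members recurred between libraries to differing degrees. A peak in all 10 libraries was found for 5188 members (27.6%), against 33.0% of nearer intergenic regions, 32.2% of gene-body regions and 73.6% of promoters. At the other end, 3157 members (16.8%) had a peak in just 2 libraries, against 13%, 14% and 5%. These shares describe regions and carry no test. Among members 50 to 100 kb from a start, 31.5% had a peak in all 10 libraries. The share was 28.3% at 100 to 200 kb, 26% at 200 to 500 kb, 22.1% at 500 to 1000 kb and 18.0% beyond 1000 kb. The 5 values declined with distance.

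The number of members with a peak followed the length of the peak lists. WT PRO libraries 1, 2 and 3 had a peak in 12833, 12300 and 11841 members. WT DIFF libraries had 9514, 8369 and 13860, p27KO PRO libraries 14091 and 13321, and p27KO DIFF libraries 10798 and 11172. WT DIFF replicate 3 stood apart from its group, with 88738 peaks against 61783 and 57534, and it overlapped the PRO libraries. For WT the means were 12325 ± 496 at PRO and 10581 ± 2897 at DIFF (SD, n = 3 each). For p27KO they were 13706 ± 544 and 10985 ± 264 (SD, n = 2 each). Averaged over genotypes, DIFF libraries had fewer members with a peak than PRO libraries, by a difference of −2232 that did not pass the exact permutation test within genotype (two-sided p = 0.0667, adjusted p = 0.16 over 12 tests). Without WT DIFF replicate 3, singled out because it stood apart, the difference was −3052. Values without this library are given as a description. p27KO libraries had 893 more members with a peak than WT libraries (exact permutation p = 0.44, adjusted p = 0.587), and 1712 more without WT DIFF replicate 3. The interaction was −977 members (exact permutation p = 0.71).

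Relative to the list, the members' share was steadier. They made up 16.2 to 18.4% of the autosomal regions of each library. In WT it was 17.7% ± 0.379 at PRO and 17.2% ± 1.05 at DIFF (SD, n = 3 each). In p27KO it was 18.4% ± 0.0707 and 17.6% ± 0.778 (SD, n = 2 each). DIFF minus PRO was −0.571 percentage points (exact permutation p = 0.233, adjusted p = 0.467) and p27KO minus WT was 0.571 percentage points (exact permutation p = 0.29, adjusted p = 0.497). Without WT DIFF replicate 3 the first of these was −0.851 percentage points, again as a description. The interaction was −0.316 percentage points (exact permutation p = 0.76).

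Within each list, members ranked far below promoters and close to the other distal classes. Regions were ranked by fold enrichment, the pileup at the summit over the local background, and expressed as a percentile in which 100 is the highest region of the list. The median member stood at the 42.6, 44.3 and 44.2 percentile in WT PRO, at 41.9, 41.0 and 43.0 in WT DIFF, at 42.4 and 43.4 in p27KO PRO and at 41.9 and 42.1 in p27KO DIFF. Promoters had medians of 73.7 to 78.6. The median member was 33.1 percentile points below the median promoter, and lower in 10 of 10 libraries (exact sign-flip permutation p = 0.00195, adjusted p = 0.0234, the smallest p that 10 libraries allow before adjustment). It was 1.72 points below gene-body regions, lower in 8 libraries and equal in 2 (exact permutation p = 0.00781, the smallest p that 2 ties allow, adjusted p = 0.0469). When lists were limited to their top 57000 peaks, the median member was 0.432 points above gene-body regions (exact permutation p = 0.0781). It was 1.38 points below nearer intergenic regions, lower in 6 libraries and equal in 4 (exact permutation p = 0.0312, the smallest p that 4 ties allow, adjusted p = 0.1). That difference turned to 1.85 points above with the top 57000 peaks (exact permutation p = 0.00391). DIFF minus PRO was −1.32 points (exact permutation p = 0.0333, adjusted p = 0.1), and p27KO minus WT was −0.371 points (exact permutation p = 0.51, adjusted p = 0.612). The interaction was 0.83 points (exact permutation p = 0.39). Fold enrichment at the median member was 4.86 to 5.68 over the libraries, against 8.35 to 10.8 at the median promoter.

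**Figure D1:**
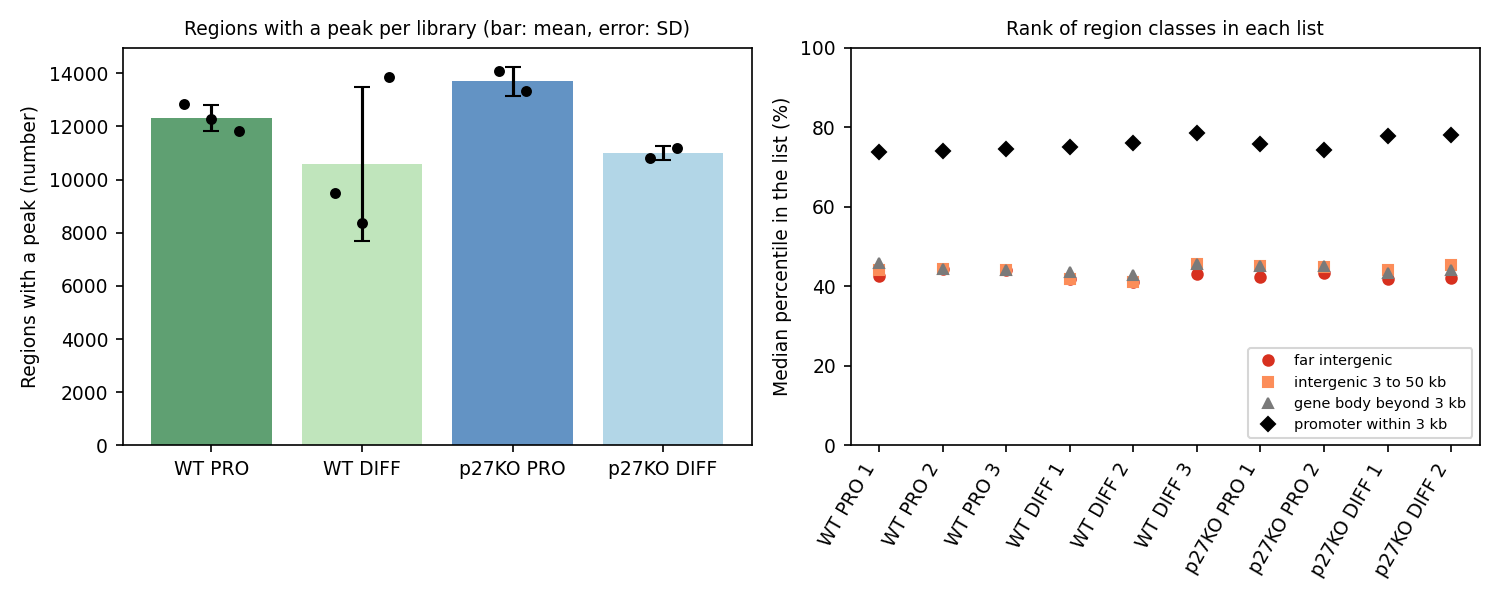
Left, number of far intergenic regions with a peak in each library (points) with the group mean (bar) and SD (error bar); right, median percentile of fold enrichment in each of the 10 lists for the 4 region classes. WT DIFF replicate 3, at 13860 regions, lies above the other WT DIFF libraries, and promoters stand above the 3 distal classes in every list.

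To compare single members between groups, the ranks in each library were turned into normal scores, values on the scale of a standard normal distribution in which regions without a peak are tied at the bottom. limma was fitted to all 70627 regions that 5 or more libraries listed, and p-values were adjusted over all of them. Of the 18823 members, 12141 passed this filter. A member can pass through the 5 PRO libraries alone, the 5 DIFF libraries alone or the 6 WT libraries alone, and such a member had to differ. Counts over tested members therefore describe a filtered set, and for members that passed through just 1 of these groups the change is given without a p-value.

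Between PRO and DIFF, members changed in both directions. In WT, 1663 of 12141 tested members (13.7%) were lower at DIFF and 1370 (11.3%) were higher (limma, adjusted p under 0.05). Over all tested regions 10.1% were lower and 9.15% were higher. In nearer intergenic regions 10.4% were lower and 8.97% higher, in gene bodies 12% and 11.2%, and in promoters 2.18% and 3.57%. In p27KO, 1078 members (8.88%) were lower and 876 (7.22%) were higher, with 6.48% and 5.83% over all tested regions. In p27KO, nearer intergenic regions had 6.73% lower and 5.62% higher, gene bodies 7.91% and 7.43%, and promoters 1.16% and 1.64%. The shares in members were thus above those of all regions, which include the promoters, in both directions. Against gene bodies, the share of members higher at DIFF was near in WT and slightly lower in p27KO. None of these differences was tested. The median change over tested members was −0.01 in WT and −0.02 in p27KO, against 0.03 and 0.04 over all tested regions. The p27KO counts rest on 2 libraries per group. Without 1 p27KO library they were 445 to 629 lower and 430 to 574 higher.

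In regions with a peak in all 10 libraries, which pass no filter through 1 group, 570 of 5188 members (11.0%) were lower and 407 (7.85%) higher at DIFF in WT. Over all 37862 such regions 7.06% were lower and 5.83% higher. In p27KO the members' counts were 325 (6.26%) lower and 178 (3.43%) higher, with 3.82% and 2.51% over all such regions. WT and p27KO share no library, so each gives its own change for the same members, while the fit estimates 1 spread for all groups. Of 3033 members called in WT, 2960 (97.6%) had the same sign in p27KO and 1610 were called there in the same direction. No member was called in opposite directions. In members with a peak in all 10 libraries, 949 of 977 called in WT (97.1%) had the same sign in p27KO, and 389 were called in the same direction. These counts over both genotypes were not made for all tested regions, so whether they are particular to members is unknown.

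**Figure D2:**
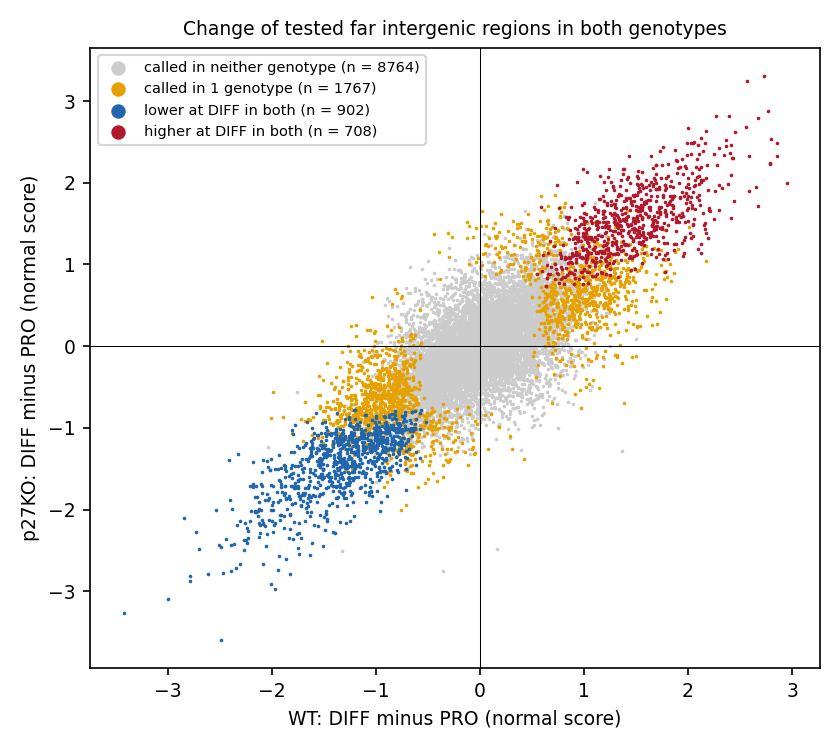
Each point is 1 of 12141 tested far intergenic regions, with its DIFF minus PRO change in normal score in WT (horizontal axis) and in p27KO (vertical axis), coloured by limma calls. The 902 regions lower in both genotypes and the 708 higher in both lie along the diagonal, and no region is called in opposite directions.

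Counted by presence alone, 886 members (4.71%) had a peak in every WT PRO library and in no WT DIFF library, and 413 (2.19%) had the opposite pattern. Over all 96188 autosomal regions these shares were 4.3% and 1.89%. In p27KO, 2402 members (12.8%) were lost and 766 (4.07%) gained in this sense, with 10.9% and 3.35% over all autosomal regions. Fewer libraries per group make this condition easier to meet in p27KO, and the shares of the genotypes are therefore not comparable. Lost in both genotypes were 554 members and gained in both were 208, with 0 members lost in one genotype and gained in the other. These counts over both genotypes were not made for all autosomal regions. The WT count of lost members was 2020 without WT DIFF replicate 3, which has a long list, and 1380 without WT PRO replicate 3. Leaving out a library also makes the condition easier to meet, and the part of list length was not tested. The count of gained members in WT was 677 without WT DIFF replicate 1 and 893 without WT DIFF replicate 2. In p27KO it was 1256 without PRO replicate 1, 1388 without DIFF replicate 1 and 1424 without DIFF replicate 2, and the number lost was 1099 when lists were limited to 57000 peaks.

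The members with the greatest falls in WT had strong peaks in every PRO library and weak or no peaks at DIFF. In the condition where it was higher, each leading member was listed in all 5 libraries, which alone passes the filter. Leading members were also picked for the size of their change, so their changes are given with SE and without a p-value. A library without a listed peak is one in which the region did not reach the caller's threshold. The greatest fall was at chr18:49480002-49480428, in the gene desert between Eno1b, an enolase gene, and Dtwd2, whose start was 275 kb away. Its fold enrichment was 17.7, 15.5 and 15.7 in WT PRO and 16.5 and 17.7 in p27KO PRO, and none of the 5 DIFF libraries listed a peak. Its normal score at DIFF was lower by a difference of −3.43 ± 0.24 (SE) in WT and −3.27 ± 0.30 in p27KO. Between Has2, which encodes a hyaluronan synthase, 494 kb to the left, and Slc22a22, the member at chr15:57187927-57188456 had fold enrichments of 16.9, 18.2 and 10.7 in WT PRO and 15.6 and 17.0 in p27KO PRO. At DIFF its single listed peak, at 3.47, was in WT replicate 2. It changed by −3.00 ± 0.41 in WT (SE).

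Further leading falls had the same form. At chr11:17468692-17469290, between C1d and Etaa1, fold enrichment was 15.2, 12.2 and 14.2 in WT PRO, 10.5 and 10.6 in p27KO PRO, and no DIFF library had a peak. Its change was −2.84 ± 0.24 in WT and −2.11 ± 0.30 in p27KO (SE). In the desert to the right of Myc, the proto-oncogene that drives cell growth and proliferation, the member at chr15:63036169-63036918 lay 1050 kb from the Myc start. It measured 19, 17.7 and 16.2 in WT PRO and 20.4 and 18.9 in p27KO PRO. At DIFF it measured 6.32 and 4.44 in WT replicates 1 and 3, with no peak in replicate 2, and 3.57 and 5.68 in p27KO. PRO and DIFF libraries did not overlap, and the change was −2.79 ± 0.33 in WT and −2.81 ± 0.40 in p27KO (SE).

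Members with the greatest rises showed the reverse pattern. At chr11:64267441-64268194, between Cox10 and Hs3st3a1, no WT PRO library had a peak, p27KO PRO libraries measured 3.83 and 4.16, and DIFF libraries measured 12.1, 10.2 and 12.3 in WT and 11.5 and 13.7 in p27KO. The change was 2.95 ± 0.18 in WT and 2.00 ± 0.22 in p27KO (SE). Its interaction, −0.95 ± 0.29, did not pass the test (limma, adjusted p = 1.00). Next to Flrt2, a gene of cell adhesion and axon guidance 271 kb to the right, the member at chr12:95420825-95421470 had no peak in any PRO library. It measured 13.2, 8.62 and 10.8 in WT DIFF and 7.13 and 9.37 in p27KO DIFF. Its change was 2.86 ± 0.24 in WT and 2.33 ± 0.29 in p27KO (SE).

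In the desert between Hace1, a ubiquitin ligase gene, and Grik2, which encodes a kainate receptor subunit, the member at chr10:45871086-45871602 rose by 2.85 ± 0.31 in WT and 2.49 ± 0.38 in p27KO (SE). The member at chr10:37945728-37946508 had no peak in any PRO library. It lay 807 kb from Marcks, a substrate of protein kinase C at the membrane, and measured 9.36, 9.02 and 14.0 in WT DIFF and 9.94 and 9.09 in p27KO DIFF. Its window held none of the 13 motifs, TEAD included. The member at chr16:49980107-49980642, 180 kb from Cd47, rose by 2.79 ± 0.31 in WT and 2.25 ± 0.38 in p27KO (SE).

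Further members led the changes in p27KO. The greatest fall was at chr5:9920949-9921741, 196 kb from Grm3, which encodes a metabotropic glutamate receptor. Fold enrichment was 17.6 and 19.6 in p27KO PRO with no peak at DIFF, and 15.7, 14.3 and 13.4 in WT PRO with 5.08 in WT DIFF replicate 3 alone. The change was −3.59 ± 0.32 in p27KO and −2.49 ± 0.26 in WT (SE). Falls of −2.97 ± 0.28 and −2.91 ± 0.31 in p27KO (SE) were measured 389 kb from Epha7, an ephrin receptor gene, at chr4:28424048-28424963, and 145 kb from Klf7, a zinc finger transcription factor gene, at chr1:63976649-63977471. The greatest rises in p27KO were 3.31 ± 0.26 at chr4:48842682-48843312, between Cavin4 and Plppr1, and 3.24 ± 0.22 at chr10:53444853-53445372, between Cep85l and Asf1a (SE). Neither had a peak in any PRO library, and both had one in all 5 DIFF libraries. A rise of 2.87 ± 0.37 was measured 469 kb from Fat1, an atypical cadherin gene, at chr8:44466456-44467287 (SE).

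Few members differed between genotypes. At PRO, 3 members were called, all lower in p27KO, where 0.034% of all tested regions were called. All 3 had a peak in the 6 WT libraries and in no p27KO library, so they passed the filter through WT alone and are given as a description. At DIFF no member passed (limma), where 0.0156% of all tested regions did, and the interaction of genotype and condition had 0 calls among members and 0 (0.0%) over all regions. At an unadjusted p under 0.05 there were 803 members (6.61%) at PRO, 686 (5.65%) at DIFF and 566 (4.66%) for the interaction. Over all tested regions these shares were 5.53%, 4.91% and 3.91%, near the 5% that this limit gives without any difference. At chr16:39052634-39052870, between Igsf11 and Lsamp, genes of neural cell adhesion, fold enrichment was 8.10, 7.35 and 11.0 in WT PRO and 6.45, 8.79 and 6.42 in WT DIFF. The change at PRO was −2.34 ± 0.30 (SE). The others were at chr18:54640829-54641245, 352 kb from Zfp608, with −2.62 ± 0.34 (SE), and at chr5:64037889-64038605, between Rell1 and Pgm2, with −1.63 ± 0.21 (SE). The windows of all 3 were soft-masked throughout. Each of the 3 missed the threshold in 8 of the 10 fits that left out 1 library, and the sign stayed negative in all 10. By presence, 7 members were in every WT and no p27KO library (0.0372%, against 0.0135% of autosomal regions), of which 5 were masked throughout. In every p27KO and no WT library there were 3 members (0.0159%, against 0.026%), of which 2 lay on chromosome 1.

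Chromosome 1 differed between libraries and moves with genotype. It held 1924 members. Of the members with a peak, the share on chromosome 1 was 8.97% ± 0.581 at PRO and 8.82% ± 0.966 at DIFF for WT (SD, n = 3 each). For p27KO it was 10.6% ± 0.212 and 10.3% ± 0.495 (SD, n = 2 each). The lowest p27KO library, at 10.0%, was above the highest WT library, at 9.53%. The median p27KO minus WT change of members on chromosome 1 was 0.15 at PRO and 0.11 at DIFF, against −0.01 and −0.03 on the other autosomes. Among the other autosomal regions of the same libraries, the chromosome 1 share was 6.95 to 8.08% in WT and 8.38 to 8.64% in p27KO. On chromosomes 2 to 19 alone, p27KO minus WT was 627 members per list (exact permutation p = 0.56) and the same number of members, 3, was called between genotypes at PRO.

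The letters around the summit differed between members that fell and members that rose, which is described here without a test. Motifs were searched on both strands of the same windows as follows: AP-1 as TGANTCA, CRE as TGACGTCA, E-box as CAGCTG, SOX as ACAAAG or ACAATG, octamer as ATGCNAAT, TEAD as GGAATG, RFX as GTTGCCA, homeobox as TAATTA, ETS as CCGGAA, STAT as TTCNNNGAA and forkhead as TGTTTAC. NFI was searched as TTGGC and GCCAA set 5 bases apart, and CTCF as CCA, AG and GGC set 2 bases apart. The 13 searches are not independent. E-box letters can lie inside a CTCF or NFI match, SOX, TEAD and RFX letters inside an NFI match, and ETS letters inside a STAT or NFI match. Sites can also overlap at their ends, as TEAD and AP-1 letters did in the window near Myc. A match is a description of letters and no evidence of binding.

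AP-1 letters were more frequent in falling than in rising members. They were present in 26.5% of members lower at DIFF in WT (441 of 1663), in 4.89% of those higher (67 of 1370), in 9.0% of those not called, and in 8.85% of all autosomal regions. Read the other way, 33.2% of the 1328 tested members with AP-1 were lower in WT and 5.05% were higher. Of the 10813 without it, 11.3% were lower and 12.1% higher. In p27KO 25.2% of members with AP-1 were lower and 3.54% higher, against 6.88% and 7.67% without it. The median change of members with AP-1 was −0.46 in both genotypes. The same split was seen outside the far intergenic set, with 29.6% of nearer intergenic regions with AP-1 and 8.43% of those without it lower in WT, and 30.5% and 10.1% in gene bodies. In promoters the values were 12% and 1.84%. In falling members 196 of 492 AP-1 sites (39.8%) lay within 25 bp of the summit, against 17 of 70 (24.3%) in rising members and 272 of 874 (31.1%) in those not called.

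The E-box letters followed AP-1 in direction. They were found in 34.6% of members lower in WT, 15.3% of those higher, 22.9% of those not called and 21.0% of all autosomal regions. Among members with an E-box and no AP-1, 17.8% were lower and 7.96% higher. With both motifs, 35.7% of 370 were lower and 2.97% higher. CRE was rare, at 45 tested members, of which 19 were lower and 1 was higher in WT. SOX was present in 41.2% of members lower, 32.7% of those higher and 35.6% of those not called, and in 29.9% of all autosomal regions. NFI was found in 20 tested members, of which 6 were lower and 0 higher.

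TEAD and homeobox letters went the other way. TEAD was found in 26% of members higher in WT, 16.7% of those lower, 14.7% of those not called and 14.6% of all autosomal regions. Of tested members with TEAD and no AP-1, 19.9% were higher and 11.1% lower in WT, and 11.8% were higher and 7.58% lower in p27KO. Homeobox letters were in 10.1% of members higher, 5.65% of those lower, 4.96% of those not called and 3.93% of all autosomal regions. Of the 684 tested members with them, 138 were higher and 94 lower in WT, and 87 were higher and 45 lower in p27KO. In nearer intergenic regions, TEAD was found in 27.2% of those higher in WT and 14.3% of those lower.

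Members with CTCF letters had smaller shares of calls in both directions. Of 1052 tested members with the CTCF letters, 5.42% were lower and 2.95% higher in WT, against 14.5% and 12.1% of those without. In p27KO the values were 2.38% and 1.9% with CTCF, and 9.5% and 7.72% without. For SOX, octamer, RFX, ETS, STAT and forkhead the shares with and without the letters differed by less than 5 percentage points in each direction and genotype. Of the 2860 tested members with none of the 13 motifs, 8.57% were lower and 12.7% higher in WT.

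**Figure D3:**
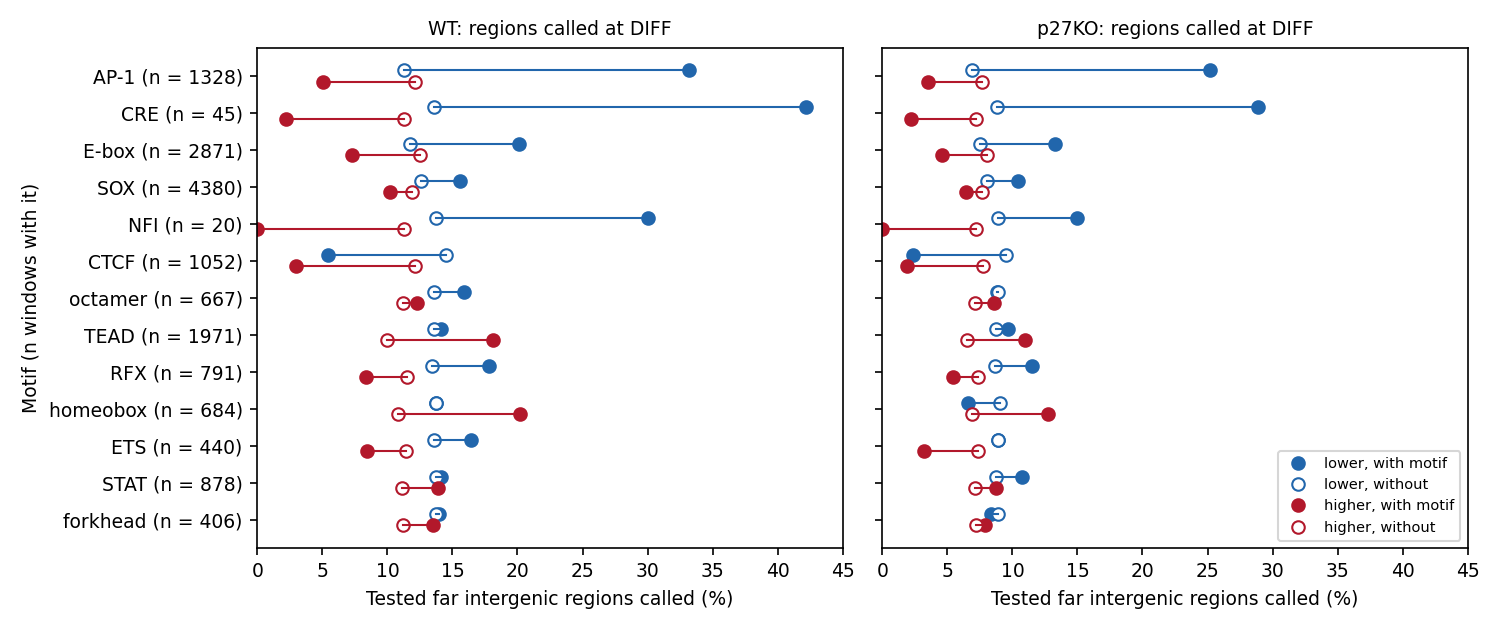
Share of tested far intergenic regions called lower (blue) or higher (red) at DIFF in WT (left) and p27KO (right), in percent, for windows with (filled) and without (open) each motif. AP-1 windows have 33.2% lower against 11.3% without in WT, and windows with CTCF letters have fewer calls in both directions.

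**Figure D4:**
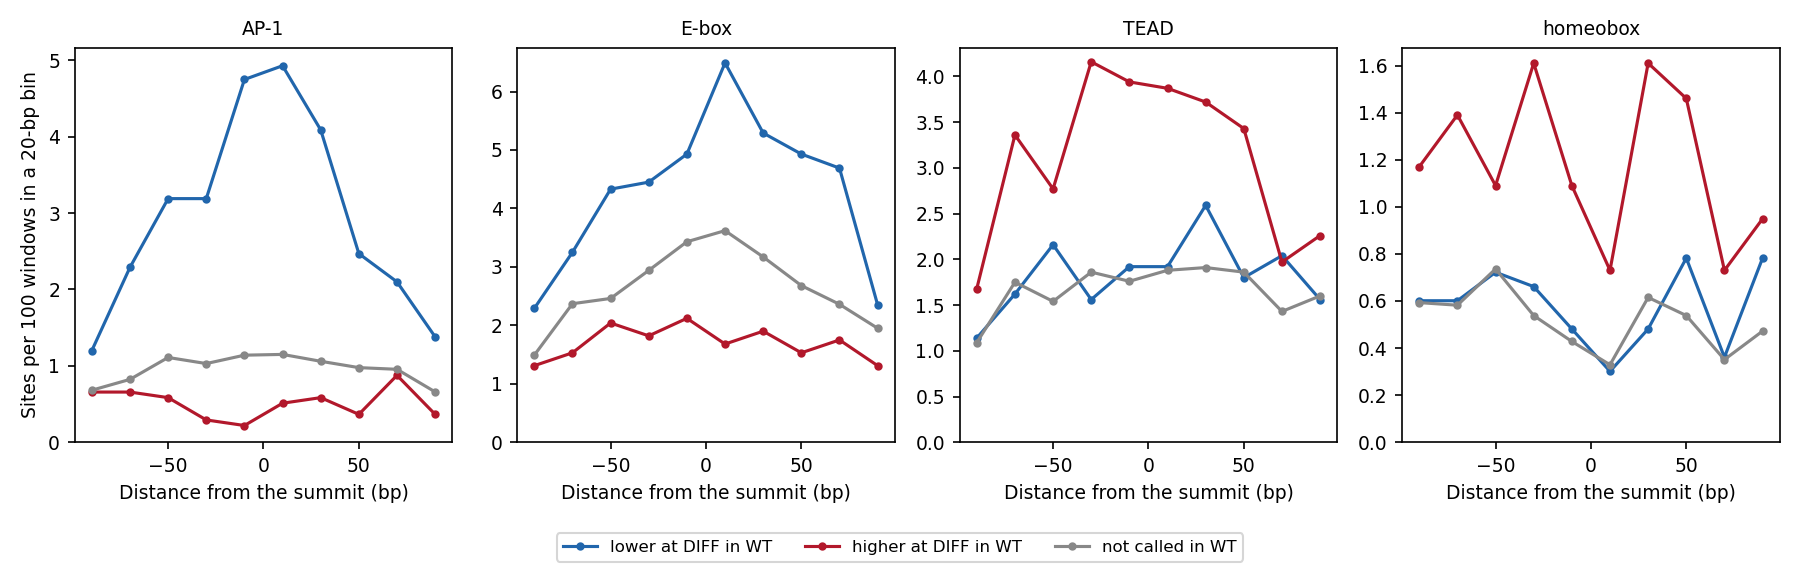
Sites of AP-1, E-box, TEAD and homeobox letters (panels) per 100 windows (vertical axis) in 20-bp bins of distance from the summit (horizontal axis, bp) for regions lower, higher or not called at DIFF in WT. AP-1 and E-box sites of falling regions are most frequent near the summit, TEAD sites are more frequent in rising regions in all bins but the one at 70 bp, and homeobox sites are more frequent in rising regions in every bin.

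Gene deserts, defined here as stretches of at least 500 kb between neighbouring protein-coding genes on an autosome, held 10545 members (56.0%). There were 601 deserts, of which 11 held no member and 203 held 20 or more. In the parts of the deserts where a member could lie, outside every gene and beyond 50 kb from a start, there were 17.9 members per Mb. Over the 588 deserts with at least 200 kb of such sequence the median density was 19.8 per Mb, with quartiles at 12.8 and 27.3. The number of members rose with the length of that sequence (Spearman rho 0.579 over 601 deserts, a description).

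The fullest desert was the 1740 kb on chromosome 14 between Olfr1507, an olfactory receptor gene, and Dad1. It held 74 members at 51.3 per eligible Mb, the highest density among deserts with at least 1000 kb of eligible sequence. It is free of protein-coding genes in the annotation used but holds 222 other annotated genes, most of them T cell receptor segments, since this is the locus of the T cell receptor alpha and delta chains. Peaks were listed at 54, 46 and 51 of its members in WT PRO, at 29, 22 and 60 in WT DIFF, at 62 and 61 in p27KO PRO and at 53 and 33 in p27KO DIFF. Of 51 tested members, 3 were lower and 0 higher in WT, and none passed the test in p27KO (limma). The next was the desert on chromosome 1 between Kcnt2, a potassium channel gene, and Cdc73, with 70 members over 2987 kb. Its members had a peak at 33, 25 and 27 in WT PRO, 19, 17 and 38 in WT DIFF, 50 and 51 in p27KO PRO and 42 and 34 in p27KO DIFF. The p27KO PRO libraries lay above the WT PRO libraries here, on the chromosome whose share differed between genotypes, and 7 of 27 tested members were lower and 5 higher in WT.

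Flrt2 borders a pair of the 10 fullest deserts on chromosome 12, with 61 members between Sel1l and Flrt2 and 51 between Flrt2 and Galc. Of 38 and 30 tested members, 5 and 3 were lower and 6 and 4 higher in WT, and 3 and 2 lower and 7 and 4 higher in p27KO. The desert between Olfm4 and the protocadherin gene Pcdh17 on chromosome 14 held 69 members over 4420 kb, and of 40 tested, 4 were lower and 4 higher in WT. The 53 members between Cdh26 and Cdh4, both cadherin genes, on chromosome 2 lay in 955 kb and had a density of 58.7 per eligible Mb, and 20 of them had a peak in all 10 libraries. Limiting the lists to their top 57000 peaks lowered the count of this desert to 35 and that of Kcnt2 to Cdc73 to 38. The 53 members between Camk1g and Plxna2, a semaphorin receptor gene, on chromosome 1 included 32 tested ones, with 6 lower and 1 higher in WT and 5 lower and 1 higher in p27KO. In the desert between Epha7 and Map3k7 on chromosome 4 the split was the reverse, with 1 of 30 tested members lower and 9 higher in WT, and 1 lower and 4 higher in p27KO.

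The desert between Nr2f1, a nuclear receptor gene with a role in cortical patterning, and Arrdc3 on chromosome 13 held 56 members. Of the 37 tested, 6 were lower and 7 higher in WT, and 8 were lower and 1 higher in p27KO. The interaction of genotype and condition had no call over all regions. The desert between Celf4 and Pik3c3 on chromosome 18 held 59 members, and of 30 tested 3 were lower and 3 higher in WT. Both directions within 1 desert were common, seen in 276 of the 495 deserts with at least 5 tested members. Long deserts with few members, chosen after their values were seen among those with at least 1000 kb of eligible sequence, were those between 1700015G11Rik and Luzp2 on chromosome 7, with 5 members in 2820 kb, between Ripk2 and Mmp16 on chromosome 4, with 3 in 1689 kb, and between Cox7c and Edil3 on chromosome 13, with 7 in 2775 kb.

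**Figure D5:**
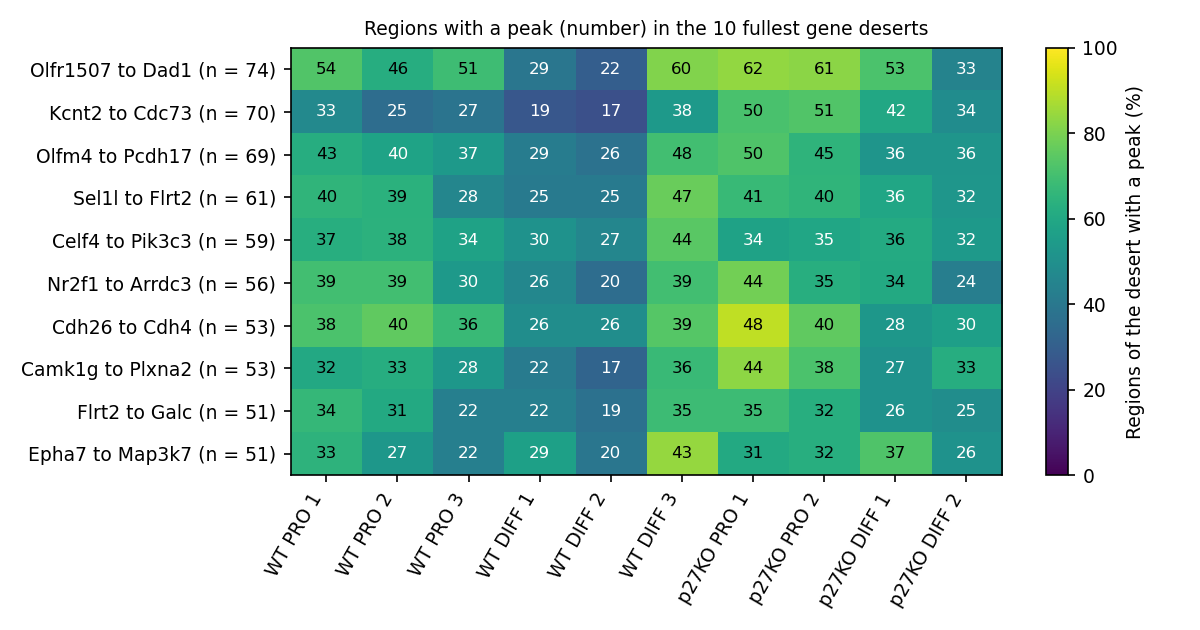
Number of far intergenic regions with a peak (printed) in each library (columns) for the 10 deserts with most of them (rows, n regions in all), coloured by the percentage of the desert's regions. WT DIFF libraries 1 and 2 have the lowest numbers in most rows, and WT DIFF replicate 3 is higher than both in all 10.

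At closer range, 10230 members (54.3%) lay in 3876 clusters, chains of members joined over the gap that is commonly used to stitch enhancers together, of which 238 held 5 or more. The 3 clusters with most members were rich in repeats. On chromosome 6, 37 members lay within 95.5 kb at chr6:114494452-114589939, between the histamine receptor gene Hrh1 and the autophagy gene Atg7, and 78.6% of their window bases were soft-masked. None of its 24 tested members was called in either genotype (limma). A pair of clusters on chromosome 8 with 24 and 23 members lay among predicted genes, with 44.3% and 55.0% of window bases masked and 1 call, a rise in p27KO. The next cluster held fewer masked bases. Its 14 members within 47.8 kb at chr12:86786196-86834036, left of Irf2bpl, had 11.2% masked bases, and of 13 tested members 2 were lower and 2 higher in WT. A cluster of 13 members, one of a pair of that size, at chr4:114625059-114706219, between Trabd2b and Gm12830, had 6.39% masked bases, with 7 of the 13 in all 10 libraries, and of 9 tested members 2 were higher in WT and 2 in p27KO.

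The members with the highest ranks lay in repeats. The 5 members with a peak in all 10 libraries and the highest mean rank were 140 to 285 bp wide, and at least 68.7% of their window bases were masked. At chr12:3109869-3110115, near the start of the assembled sequence of chromosome 12, fold enrichment was 50.8, 50.0 and 54.1 in WT PRO, 51.9, 55.3 and 49.9 in WT DIFF, 56.7 and 52.5 in p27KO PRO and 52.1 and 56.3 in p27KO DIFF. The groups overlapped, and the change was −0.07 ± 0.16 in WT (SE; limma, adjusted p = 0.787). Another 3, at chr5:151734549-151734688, chr1:195371687-195371971 and chr3:159939405-159939680, had 22, 32 and 32 copies of the telomere repeat TTAGGG or its complement in the window. Their fold enrichments were 36.0 to 54.6 over the 10 libraries. Whether reads from other copies were assigned to these places was not tested.

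The genes with most members nearest to them were those that border large deserts. Of 20807 autosomal protein-coding genes, 3393 were the nearest gene of at least 1 member, with a median of 3 members. The highest were Olfm4 with 54, Tbl1xr1 with 52, Adgrl2 with 49, Pik3c3 with 46, Flrt2 with 44, Map3k7 with 41, Dad1, Dsel and Rag2 with 38 each, and B3galt2, Cdh26, Olfr1507, Pcdh20 and Sel1l with 36 each. For Tbl1xr1, a subunit of nuclear corepressor complexes, 8 of 36 tested members were lower and 6 higher in WT. For Adgrl2, a latrophilin receptor of synaptic adhesion, 4 of 25 were lower and 2 higher. For Map3k7, a kinase of TGF-beta and inflammatory signalling, 2 of 25 were lower and 5 higher.

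Members nearest to neural transcription factor genes numbered 636 around 66 of 95 listed genes. Of 412 tested, 72 (17.5%) were lower and 58 (14.1%) higher in WT, and 50 (12.1%) were lower and 45 (10.9%) higher in p27KO, against 13.7%, 11.3%, 8.88% and 7.22% of all tested members. Maf, a basic leucine zipper factor gene, had 30 members, and of 21 tested 6 were lower and 3 higher in WT and 1 lower and 4 higher in p27KO. No member had a call for the interaction of genotype and condition, and p27KO has 2 libraries per group. Around Nr2f1 there were 28 members, 22 of them tested, with 4 lower and 3 higher in WT and 5 lower and 0 higher in p27KO. Zeb2, a zinc finger factor gene of neural crest and glial development, had 26 members, 18 of them tested, with 2 lower and 5 higher in WT. Klf6 had 24 members, 20 of them tested, with 5 lower and 5 higher. Sox9, a regulator of neural stem cell and glial identity, had 23 members, with 2 of 12 tested lower and 2 higher in WT.

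Around synaptic adhesion and guidance genes there were 960 members at 66 of 76 genes. Of 504 tested, 73 (14.5%) were lower and 52 (10.3%) higher in WT, near the shares of all members. Tenm4, a teneurin gene, had 32 members, and of 21 tested 2 were lower and 3 higher in WT. Cdh20 had 34, and of 15 tested 1 was lower and 0 higher in WT. Epha7 had 32, 19 of them tested, with 2 lower and 5 higher in WT and 1 lower and 3 higher in p27KO. Cdh11 had 33, 18 of them tested, with 2 lower and 1 higher in both genotypes.

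Secreted signals and receptors had 271 members around 43 of 59 genes, with 29 (16.6%) of 175 tested lower and 30 (17.1%) higher in WT. Over all tested members these shares were 13.7% and 11.3%, and the differences were not tested. Members nearest to Fzd8, a Wnt receptor gene, numbered 22, and of 12 tested 7 were higher in WT and 6 in p27KO, with 0 lower in either. Members nearest to Inhba, which encodes an activin subunit, had 2 of 11 tested lower and 0 higher in both genotypes. Bmp2 had 21 members, 11 of them tested, with 2 lower and 1 higher in WT and 3 lower and 1 higher in p27KO. Spry2, an inhibitor of receptor tyrosine kinase signalling, had 9 tested members and no call. Cxcl12, a chemokine gene, had 2 of 9 tested members lower and 1 higher in WT.

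Glial and extracellular matrix genes had 118 members around 18 of 37 genes, with 10 (11.9%) of 84 tested lower and 13 (15.5%) higher in WT. The shares of all tested members, 13.7% and 11.3%, are the comparison for each list here, and no difference was tested. Gja1, which encodes the astrocyte gap junction protein connexin, had 10 tested members, of which 4 were higher in WT and 5 in p27KO, and 0 lower. Tnc, the gene of the matrix protein tenascin C, had 3 of 11 tested members lower and 2 higher in WT. Gpc5 had 21 members, 12 of them tested, with 1 lower and 1 higher in WT, and Slc1a3, the glutamate transporter gene of astrocytes and stem cells, had 0 of 8 tested lower and 1 higher. Around AP-1 and immediate early genes there were 27 members at 5 of 18 genes, 14 of them tested, with 3 (21.4%) lower and 5 (35.7%) higher in WT. The single member nearest to Fos lay 50.8 kb from its start, had a peak in all 10 libraries and was not called. Both tested members nearest to Egr2, an early growth response factor gene, were higher in WT and in p27KO. Genes that regulate other lineages had 74 members around 16 of 36 genes, with 5 (11.4%) of 44 tested lower and 6 (13.6%) higher in WT. Foxa2, an endoderm and floor plate factor gene, had 22 of these members, 16 of them tested, with 1 lower and 1 higher in WT.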

How the data were processed

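ATAC-seq was analysed from 10 peak lists, 1 for each library. Per the study's methods, the authors trimmed reads with Cutadapt and Trimmomatic, aligned them to GRCm38 with Bowtie2, handled duplicates with Picard MarkDuplicates and ran MACS2 on each library for narrow peaks at a false discovery rate of 0.05, without a model. The versions are not given in the sources used here. The deposited lists hold, for every peak, a score that repeats the q-value on an integer scale, the fold enrichment (a ratio of the summit pileup to the local background), and the −log10 p-value and −log10 q-value. They hold no reads or coverage outside peaks, so sequencing depth is unknown and no counting interval was given. List lengths ran from 57534 to 91801 peaks.

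Overlapping peaks were merged, and intervals with a peak in at least 2 lists were kept. Gene positions came from GENCODE M21 on GRCm38, while the authors used M18. In each library all accessible regions, those outside the autosomes included, were ranked by fold enrichment. limma 3.58.1 (R 4.3.3) was fitted to normal scores of ranks over the 4 groups, with Benjamini-Hochberg adjustment over the 70627 regions listed in 5 or more libraries. Library values were compared by exact two-sided permutation tests in Python 3.11.15 (numpy 2.4.6, scipy 1.17.1, pandas 2.3.3). Sequences were read with pysam 0.24.0 from the GRCm38 reference, and figures were drawn with matplotlib 3.10.9. The fitting and permutation code was tested on simulated data. The labels number the libraries and do not say which animals or cultures they came from, so p-values measure the spread between these libraries, which may be technical.

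Members named in the text were the 5 greatest falls and rises in WT, 3 further ones each way in p27KO, up to 5 called between genotypes, and the 5 with the highest mean rank. A fall in WT and a member of the highest rank are not reported here. Places named were the 10 deserts, 5 clusters and 10 nearest genes with most members, and up to 5 genes of each gene list. Genes tied with the last were added, and a cluster tied with the fifth was not. Alternatives changed the distance limit, the gene bodies avoided, the peak threshold, the overlap rule, list length, ranking value, filter, fit and block, and left out each library. The members and lists were chosen with earlier results of these data known.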

Additional observations from a re-analysis of the deposited data

How the results depend on the processing

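Of 174 alternatives that kept all libraries, 147 left the direction and the side of the threshold, or the count within 1.5 times, as reported, and so did 167 of 210 fits without 1 library. When lists were limited to 57000 peaks, the interaction became 168 members per list and 0.0181 percentage points of share, the share at DIFF minus PRO became 0.0735 points, and the difference in median percentile became 1.85 from nearer intergenic and 0.432 from gene-body regions. The same limit gave 632 members gained in WT and 1099 lost in p27KO. With −log10 q of at least 3, these percentile differences were 0.249 and −0.406, and DIFF minus PRO was −0.384. With peaks that cover the summit the 3 values were −0.596, −0.625 and −1.01. Beyond 100 kb, DIFF minus PRO was −0.148 and p27KO minus WT 0.408 percentile points. Ranked by −log10 p, DIFF minus PRO was −1.0 and the interaction −1.51. The causes were not tested.

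In regions with a peak in all 10 libraries, 570 members were lower and 407 higher in WT, 325 and 178 in p27KO, and 0 differed between genotypes at PRO, where the 3 members called have no peak in p27KO and are left out by construction. The shares called were lower too, and the cause was not tested. With a peak in at least 2 libraries, 17 differed at PRO and 7 had an interaction. At that floor a member could enter through 1 group alone, and such a member had to differ. The share over all regions was not counted there, so these counts are a description. With only the groups compared, 1 differed at PRO.

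Without 1 library, the difference in members per list ranged from −3052 to −1679 at DIFF minus PRO, from 340.0 to 1712 at p27KO minus WT and from −2083 to 662 for the interaction, which turned positive (662) without WT DIFF replicate 3. The share ranged from −0.851 to −0.295 at DIFF minus PRO and from −0.869 to 0.244 for the interaction, which turned positive without WT DIFF replicate 3 (0.244) or p27KO DIFF replicate 2 (0.237). The median percentile at DIFF minus PRO ranged from −1.6 to −1.09, and its difference from nearer intergenic regions from −1.54 to −1.18. In p27KO 445 to 1154 members were lower and 430.0 to 877 higher, and both counts fell by over 1.5 times without any 1 of the 4 p27KO libraries. Between genotypes, 0 to 3 differed at PRO and 0 to 1 at DIFF. Lost in WT were 934 to 2020, gained in WT 470.0 to 893, and gained in p27KO 1035 to 1424.

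Same-numbered PRO and DIFF libraries correlated at 0.033 to 0.065 in WT, where 6 of 6 libraries were closest to their own number, and at −0.141 in p27KO, so the numbers were not taken as pairs. With the replicate block, 1511 members were lower and 1311 higher in WT, 941 and 818 in p27KO, and 2 differed between genotypes at DIFF. The percentile at DIFF minus PRO was then −1.4 (exact sign-flip permutation p = 0.0625). That is the smallest p this block allows, so it could not pass the threshold. A crossed block in p27KO, chosen after seeing the data as were the fits on chromosomes 2 to 19, gave 1089 lower and 908 higher. Over the members named, 27 of 228 alternatives lost the call and 0 turned the sign. A region without a listed peak may be open below the caller's threshold. Sequencing depth is unknown, and its part in the results was not tested.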

Other observations

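Some far intergenic regions were listed in a single group. There were 288 with peaks in WT PRO libraries alone, 214 in WT DIFF alone, 268 in p27KO PRO alone and 49 in p27KO DIFF alone. The same counts were not made over all autosomal regions, so whether these numbers are particular to far intergenic regions is unknown. A peak in every library of that group and in no other was found for 28 of the 288 and 18 of the 214. The p27KO groups have 2 libraries each, and a region needed a peak in 2 lists, so there the condition was met by all 268 and all 49.

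Falling and rising members were alike in base composition. Median GC content was 48.8% in members lower at DIFF in WT and 48.3% in those higher. Windows masked throughout made up 0.541% of members lower, 2.34% of those higher and 3.54% of those not called. Members with a peak in all 10 libraries had a mean of 10.8% masked bases, against 15.7% over all members.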
